A study of Homo sapiens with 9 samples.

Results

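SGA315, a ligand of the aryl hydrocarbon receptor (AHR), was added to lovastatin in Caco-2 cells, and the response was measured across all genes by RNA sequencing of poly(A)-enriched RNA. Caco-2 is an established human colon adenocarcinoma line that can form an enterocyte-like layer. The comparison holds 6 of the 9 libraries of the series: 3 libraries labelled Lovastatin and 3 labelled Lovastatin + SGA315. It was defined by those labels alone. Lovastatin libraries came from cells given 10 µM lovastatin, and Lovastatin + SGA315 libraries from cells given 10 µM lovastatin and 10 µM SGA315. The last 3 libraries, Lovastatin + SGA360, had 10 µM of a second AHR ligand in place of SGA315. Every group had 48 h of treatment in aMEM medium with lipid-depleted serum, so every group carried the statin, and cells without lovastatin are not analysed here. Nothing in the labels ties the 3 libraries of a group to separate cultures. The p-values below therefore describe how much these libraries vary, and that variation may be technical.

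AHR is a transcription factor held in the cytosol with HSP90 until a ligand binds it. It then enters the nucleus, pairs with ARNT and binds dioxin response elements, and CYP1A1 is its classical target. Lovastatin is a statin, a drug that blocks an early step of the mevalonate pathway to cholesterol. Cells short of sterol activate the transcription factor SREBP2, which raises the genes of sterol synthesis and uptake.

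Library depth ranged from 14124515 to 16297645 counts in the lovastatin group and from 12883881 to 14735130 counts with SGA315, counting 1 transcript entry per gene. Some named genes overlap a more abundant neighbour and are uncertain, since no source used here says whether counting used strand: CYP3A5 (with ZSCAN25), DBP (SPHK2), HSPE1 (HSPE1-MOB4), IFIT3 (LIPA), MVK (MMAB), PDSS1 (ABI1), SLC39A5 (ANKRD52) and SREBF1 (RAI1). For genes of at least 20 CPM (counts over the library's TMM-scaled total, a relative level not divided by transcript length), the median coefficient of variation between libraries was 2.93% with lovastatin alone and 3.55% with SGA315. All 9 libraries correlated best with a library of their own group. Precursor ribosomal RNA (RNA45SN1) took 0.521 to 0.725% of counts with lovastatin alone and 0.235 to 0.317% with SGA315. Without the ribosomal RNA entries, the number of genes called (adjusted p under 0.05, SGA315 against lovastatin alone) was 5066 higher and 5066 lower, beside 5282 and 4870 with them. Among 12 markers of the line and of intestinal epithelium, VIL1, EPCAM, CDH1, CDX2, HNF4A, KRT8, KRT18 and CDH17 were expressed, CDX1 had 0 counts in the 6 libraries, and KRT20, GPA33 and LGALS4 were at or near 0. Their summed level was 7801 to 7881 CPM with lovastatin alone and 4352 to 4431 CPM with SGA315, most of it KRT8 and KRT18. Markers of squamous epithelium summed to at most 0.676 CPM and markers of endothelium to at most 3.15 CPM in any of the 6 libraries. The immune cell markers went from 23.5 to 24.3 CPM with lovastatin alone to 16 to 19.1 CPM with SGA315. Most of that fall was in LYZ (a mean of 10.4 and 5.25 CPM) and CD14 (8.21 and 4.78 CPM). CD68 went up, from a mean of 4.58 to 5.82 CPM, and the other members were at or near 0. The fibroblast markers went from 409 to 417 CPM down to 215 to 216 CPM, most of it PDGFRA (a mean of 360.7 and 188 CPM). COL1A1 had a mean of 44.1 and 21.3 CPM and PDGFRB of 8.78 and 6.54 CPM, and COL1A2 was at or near 0. The hepatocyte markers summed to 95.6 to 127 CPM and to 53.8 to 66.8 CPM. The goblet cell markers summed to 119 to 129 CPM and to 88.6 to 90.6 CPM. The enteroendocrine markers were higher with SGA315, at 10.4 to 11.1 CPM and 13.3 to 14.8 CPM, with NEUROD1, GCG and INSM1 at 0. The Paneth cell markers, at 10.7 to 12.2 CPM and 9.67 to 11.2 CPM, and the tuft cell markers, at 2.96 to 3.83 CPM and 3.22 to 4.77 CPM, overlapped between the groups. The Paneth sum holds opposite moves. LYZ, also counted among the immune cell markers, fell as given above. PLA2G2A rose from a mean of 0.847 to 4.24 CPM and ITLN2 from 0.274 to 0.905 CPM. Because the libraries are from bulk cultures, fewer cells of a kind and less RNA per cell cannot be told apart.

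Adding SGA315 changed most of the genes that could be tested. Of 14663 genes, 5282 were higher and 4870 lower at an adjusted p under 0.05 (edgeR quasi-likelihood test, Benjamini-Hochberg adjusted), that is 69.2% called, 36% higher and 33.2% lower. The remaining 4511 were not called. In 70.4% of genes the 3 values of one group did not overlap the 3 of the other. By direction, 36.6% were higher without overlap and 33.8% lower. Most changes were small. The middle size of a called change was 0.42 (log2), and 36.2% of called genes changed by less than 1.25-fold. At least 2-fold changes were found for 704 higher and 316 lower genes, and at least 4-fold changes for 63 higher and 11 lower genes. All values rest on TMM scaling, under which the median gene changed by 0.04. When libraries were scaled to their totals alone that median was 0.16, and 6919 genes were called higher against 3627 lower, so 65.6% of calls were rises in place of 52%. Log2 fold changes would be about 0.12 higher on that scale.

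The direction of the response went with the level of the gene. Among the 2396 genes with a mean of 100 CPM or more, 1432 fell and 641 rose, at a median log2 fold change of −0.16. Among the 2308 genes between 1 and 5 CPM, 268 fell and 930 rose, at a median of 0.30. The classes between ran in order, with 752 lower and 1321 higher of 3128 genes at 5 to 20 CPM, and 2366 lower and 2125 higher of 5957 genes at 20 to 100 CPM. Of 1200 long non-coding RNA genes 448 rose and 183 fell, and of 362 transcribed pseudogenes 169 rose and 25 fell. Entries of small RNAs went the other way, with 10 higher and 28 lower of 98 miRNA genes and 6 higher and 17 lower of 86 snoRNA genes, at medians of −0.18 and −0.23. Low genes enter the test only if at least 1 group is above the filter. By group mean, 452 tested genes were above it with SGA315 and not with lovastatin alone, and 124 the other way round. Their direction follows from that split, so these genes are no support for rises among the lowest genes.

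**Figure D1:**
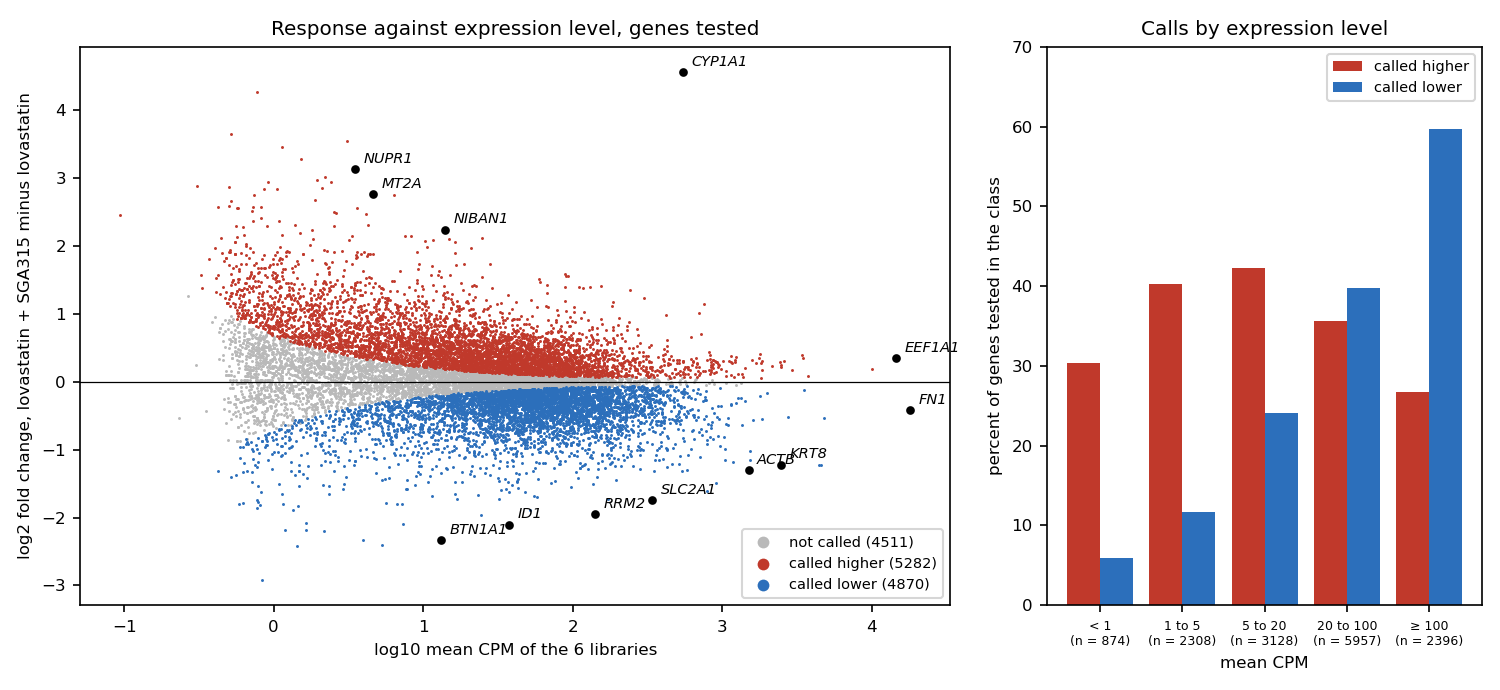
Left, each point is 1 of 14663 genes, with the log10 of its mean CPM over the 6 libraries against its log2 fold change (lovastatin + SGA315 minus lovastatin). Right, bars give the percent of genes called higher (red) and lower (blue) in 5 classes of mean CPM. CYP1A1 lies highest at 4.56, and the percent called lower goes from 5.95% under 1 CPM to 59.8% at 100 CPM and over.

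CYP1A1, the xenobiotic-metabolising cytochrome P450 that AHR ligands classically induce, had the largest rise of the response. It stood at 43.7, 41.4 and 48.9 CPM with lovastatin alone and at 1042, 1088 and 1031 CPM with SGA315. Every SGA315 library lay far above every lovastatin library, at a log2 fold change of 4.56 ± 0.036 (SE, adjusted p = 2.73e-74). CYP1B1, its relative in the same family, stood at 2.63, 3.46 and 3.11 CPM and rose to 12.8, 14.7 and 13 CPM (log2 fold change 2.14 ± 0.13, adjusted p = 3.8e-24). The groups did not overlap. TIPARP, a mono-ADP-ribosyltransferase gene that AHR induces and that restrains AHR, went from 33.6, 35.2 and 35.9 CPM to 47.1, 43.6 and 46.5 CPM, a rise of 0.39 ± 0.053 on the log2 scale. Its lowest SGA315 library was above its highest lovastatin library.

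All gene lists below were chosen with earlier results of these data known. Their counts are descriptions and no independent support, to be read beside the shares of all genes. The AHR battery as a list moved both ways. Of 14 fixed target genes 10 were tested, of which 4 were higher and 5 lower, beside 36% and 33.2% of all genes. Their median log2 fold change was −0.02 (0.10 with scaling to totals only) beside 0.04 for all genes tested. NQO1, a quinone reductase, went from 756, 750.3 and 765 CPM to 541, 543 and 535 CPM and fell by 0.49 ± 0.026 on the log2 scale. ABCG2, a xenobiotic exporter, fell by 0.42 ± 0.068 and CYP2S1, another P450, by 0.78 ± 0.05, both without overlap between the groups. ALDH3A1, an aldehyde dehydrogenase gene, had 7.54, 7.21 and 7.33 CPM and 9.21, 9.40 and 7.42 CPM, and its log2 fold change of 0.24 ± 0.11 was not called (adjusted p = 0.0513, 95% interval 0.02 to 0.47). It was called higher with scaling to totals (log2 fold change 0.36) and without SGA315 replicate 3, the library that overlapped lovastatin alone (log2 fold change 0.34, adjusted p = 0.0107). UGT1A6 fell by 0.45 ± 0.03 and GSTA1 rose by 0.89 ± 0.074, but both share sequence with near-identical neighbours and their counts are uncertain. The receptor itself fell: AHR had 77.3, 78.2 and 81.9 CPM with lovastatin alone and 52.2, 50.8 and 48.6 CPM with SGA315, a fall of 0.65 ± 0.044. Its partner ARNT rose by 0.53 ± 0.052, from 36.1, 38.5 and 35.4 CPM to 52.7, 50.2 and 56 CPM. AHRR, the AHR repressor gene, had 10.4, 9.99 and 11.6 CPM and 9.21, 9.96 and 9.24 CPM and was not called (log2 fold change −0.18 ± 0.10, adjusted p = 0.121). CYP1A2 had 1 count over the lovastatin libraries and 2 over the SGA315 libraries and could not be tested.

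The promoters of CYP1A1 and TIPARP are shown because both genes rose and both hold the core of the dioxin response element. They are the 250 bases before the start of the gene, 5′ to 3′ on the strand of the gene, from RefSeq (GRCh38.p14), and capitals mark GCGTG or its reverse complement CACGC. The CYP1A1 window is chr15:74725529-74725778 on the minus strand and the TIPARP window chr3:156674340-156674589 on the plus strand.
CYP1A1: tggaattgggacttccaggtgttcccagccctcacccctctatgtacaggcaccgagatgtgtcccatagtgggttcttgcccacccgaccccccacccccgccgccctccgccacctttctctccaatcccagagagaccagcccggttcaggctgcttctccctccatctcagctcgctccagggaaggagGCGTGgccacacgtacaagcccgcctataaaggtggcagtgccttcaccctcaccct
TIPARP: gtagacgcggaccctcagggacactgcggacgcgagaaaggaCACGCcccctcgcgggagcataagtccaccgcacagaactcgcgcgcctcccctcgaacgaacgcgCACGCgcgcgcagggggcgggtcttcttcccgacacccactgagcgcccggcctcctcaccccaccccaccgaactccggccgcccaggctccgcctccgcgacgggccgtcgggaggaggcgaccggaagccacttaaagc
The match in CYP1A1 begins 57 bases before the start, and those in TIPARP 208 and 142 bases before it. Of 11477 tested genes with a promoter in the table, 50% held GCGTG on either strand within 300 bases (250 before to 50 after the start). The share was 5 of 8 in the AHR battery, 43.9% among genes that rose at least 2-fold and 47.6% among genes that fell at least 2-fold, so the letters were no more common among genes that rose.

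Of 12 genes of PXR and CAR drug metabolism 7 were tested. Of those 3 were higher and 3 lower, beside 36% and 33.2% of all genes. SULT2A1, a sulfotransferase for steroids and bile acids, rose from 4.72, 4.28 and 4.28 CPM to 12.6, 15 and 14.4 CPM, by 1.65 ± 0.12 on the log2 scale, with no overlap. CYP3A5, a drug-metabolising P450, rose by 1.08 ± 0.15. ABCC2, a canalicular conjugate exporter, fell by 0.43 ± 0.028.

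Outside the AHR battery, the 12 largest rises among genes of at least 5 CPM without overlap included KLHDC7B, from 1.55, 1.58 and 1.82 CPM to 11.5, 12 and 9.99 CPM (log2 fold change 2.75 ± 0.15). NIBAN1, a stress-responsive gene, went from 5.12, 4.36 and 5.13 CPM to 23.2, 23.3 and 22.7 CPM, and INHBE, an inhibin subunit gene, from 5.19, 7.21 and 6.68 CPM to 26.1, 27.1 and 26.2 CPM. In each of these genes the groups did not overlap, which the choice of the 12 largest rises requires. PCLO, a presynaptic scaffold gene, rose by 2.1 ± 0.095, N4BP2L1 by 2.09 ± 0.11, DUSP15, a dual-specificity phosphatase gene, by 1.97 ± 0.079, and LINC00886, a long non-coding RNA, by 2.15 ± 0.13. MAT1A, the methionine adenosyltransferase of differentiated liver, went from 5.05, 3.83 and 3.83 CPM to 16.1, 17.7 and 16.8 CPM, a rise of 1.99 ± 0.11. The genes MST1 and its pseudogene MST1P2 also rose, by 2.12 ± 0.079 and 2.07 ± 0.12, but MST1 overlaps the more abundant APEH and the pair share sequence, so their values are uncertain.

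The 12 largest falls were of several kinds, and RRM2, UHRF1, FOSL1 and EGR1 among them are described with their lists. BTN1A1, a butyrophilin gene, went from 20.5, 24.1 and 21 CPM to 4.48, 3.93 and 4.62 CPM, a fall of 2.33 ± 0.11 on the log2 scale. ID1, a helix-loop-helix inhibitor and BMP target, went from 62.4, 60.5 and 60.5 CPM to 13.5, 16.4 and 12.6 CPM, a fall of 2.11 ± 0.064. Neither gene had any overlap between the groups, which the choice of the 12 largest falls requires. SLC2A1, the glucose transporter GLUT1, lost most in absolute terms among these 12, from 509, 557 and 506 CPM to 156, 160.4 and 151 CPM (fall of 1.75 ± 0.033). EDN1, the endothelin precursor gene, fell by 1.80 ± 0.13, IL1R2, a decoy receptor for interleukin 1, by 1.79 ± 0.13, CTXN1 by 1.78 ± 0.15 and GPRC5A, an orphan receptor gene, by 1.73 ± 0.067. MYBPH fell by 2.40 ± 0.17 but overlaps the more abundant CHI3L1 and is uncertain.

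**Figure D2:**
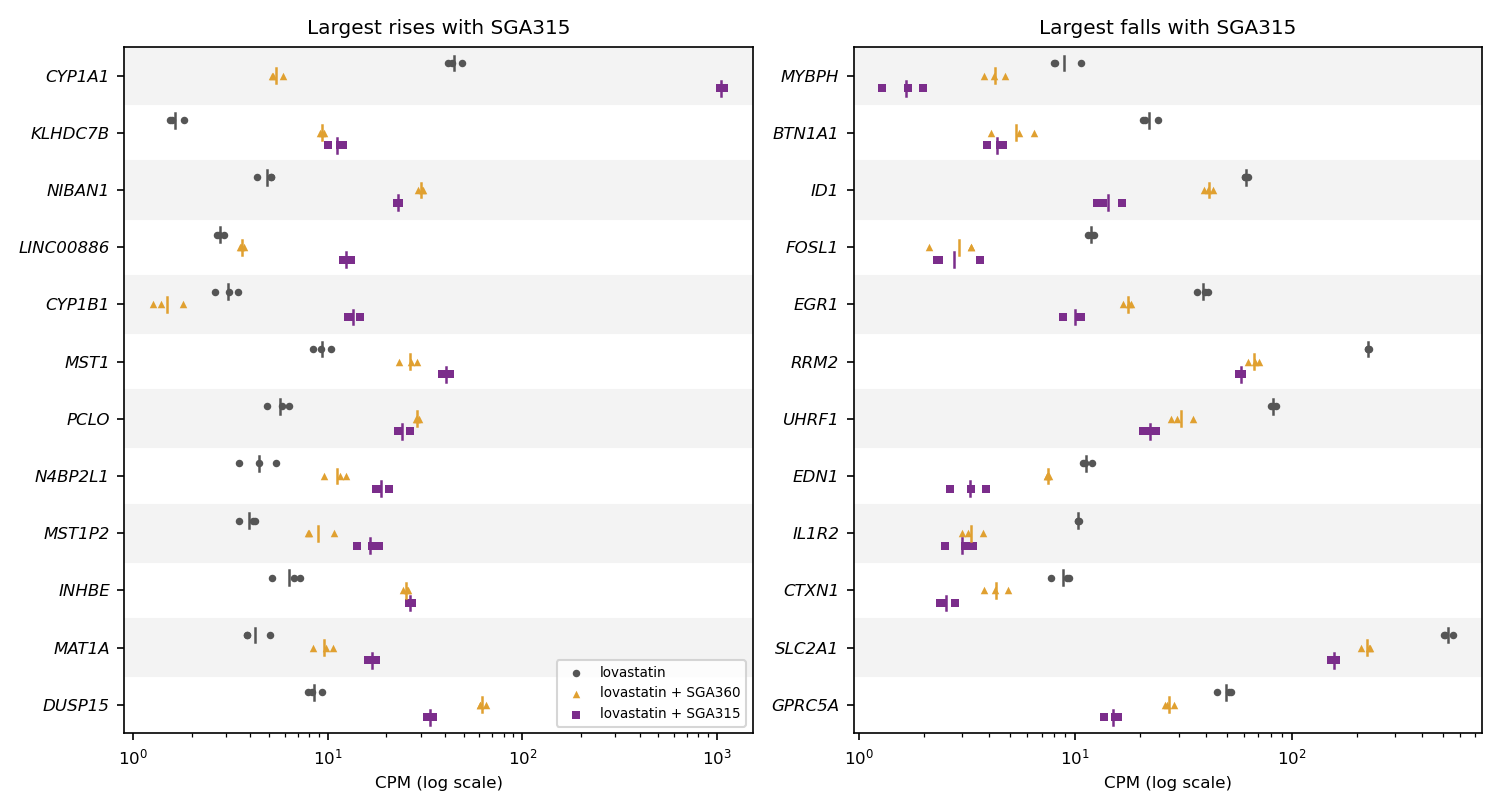
CPM on a log scale in each of the 9 libraries for the 12 largest rises (left) and the 12 largest falls (right) between lovastatin (grey circles) and lovastatin + SGA315 (purple squares), with lovastatin + SGA360 (orange triangles) beside them and a short line at each mean of 3. The grey and purple symbols do not overlap in any of the 24 genes, which the choice of these genes requires, and SGA360 lies below lovastatin alone for CYP1A1 and CYP1B1.

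The largest gain in CPM was in a gene of translation. EEF1A1, the elongation factor that brings tRNA to the ribosome, went from 12542, 12782 and 13176 CPM to 16401, 16247 and 16479.8 CPM (log2 fold change 0.35 ± 0.027). EEF2, TPT1 and RPL4 also gained, by 0.39 ± 0.026, 0.35 ± 0.028 and 0.31 ± 0.026, and FTH1, the ferritin heavy chain, by 0.41 ± 0.027. These are small folds of abundant transcripts, with the SGA315 libraries above all lovastatin libraries in each. The rule that names the largest gains requires that separation. The mitochondrial ribosomal RNA MT-RNR2 rose by 0.18 ± 0.032, a value read from poly(A)-enriched libraries. The losses were in FN1, fibronectin, from 19986, 21487 and 20936 CPM to 15659, 15279 and 15678 CPM, and in KRT8, ACTB, GAPDH, SLC2A3 and SCD. The ribosomal RNA precursor RNA45SN1, which shares its reads with RNA28SN1, fell by 1.22 ± 0.073.

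Enzymes of cholesterol synthesis fell together under SGA315 although both groups carried the statin. Of 9 mevalonate pathway genes up to squalene 8 fell and 1 rose, at a median log2 fold change of −1.06, and all 11 sterol enzymes after squalene fell, at a median of −0.94. HMGCS1, an early synthase of the pathway, stood at 498, 501 and 495 CPM with lovastatin alone and at 254, 249.9 and 259 CPM with SGA315, a fall of 0.97 ± 0.027 on the log2 scale. Its 3 lovastatin libraries lay close together, above all SGA315 libraries. MVK, mevalonate kinase, fell by 1.06 ± 0.055, MVD by 1.18 ± 0.034, IDI1, the isomerase of isopentenyl units, by 1.24 ± 0.031, FDPS by 1.13 ± 0.032, and FDFT1, squalene synthase, by 0.98 ± 0.032. PMVK, phosphomevalonate kinase, was the exception, from 15.2, 14.1 and 14.5 CPM to 20.1, 20.1 and 18.8 CPM, a rise of 0.43 ± 0.077. ACAT2 fell by 1.21 ± 0.032 but overlaps the more abundant TCP1 and is uncertain.

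After squalene, DHCR7, which makes cholesterol from its last precursor in one branch, went from 602, 602 and 593 CPM to 256, 263 and 234 CPM (fall of 1.25 ± 0.029). LSS, lanosterol synthase, fell by 1.10 ± 0.031, NSDHL by 1.06 ± 0.048, EBP by 1.02 ± 0.04, CYP51A1 by 0.99 ± 0.03 and SQLE, squalene epoxidase, by 0.79 ± 0.031. HSD17B7 had the smallest fall of the 11, 0.45 ± 0.075. CCAAT, the box bound by NF-Y, a factor known to act with SREBPs, was in 8 of the 9 post-squalene promoters matched. The promoters of HMGCS1, from the mevalonate pathway list, and DHCR7, from the list after squalene, are shown as examples. Both are on the minus strand, at chr5:43313413-43313662 and chr11:71448394-71448643 (RefSeq, GRCh38.p14), with CCAAT or its reverse complement ATTGG in capitals.
HMGCS1: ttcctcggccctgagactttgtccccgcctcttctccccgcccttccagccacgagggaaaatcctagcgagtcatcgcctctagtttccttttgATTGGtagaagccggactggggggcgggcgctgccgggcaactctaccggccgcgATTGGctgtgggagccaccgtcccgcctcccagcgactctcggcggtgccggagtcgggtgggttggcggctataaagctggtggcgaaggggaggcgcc
DHCR7: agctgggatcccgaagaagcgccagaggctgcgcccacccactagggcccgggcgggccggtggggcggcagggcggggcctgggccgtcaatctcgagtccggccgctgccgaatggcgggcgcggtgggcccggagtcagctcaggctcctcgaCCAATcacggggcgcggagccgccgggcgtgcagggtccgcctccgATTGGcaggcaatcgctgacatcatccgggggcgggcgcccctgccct
Matches began 155 and 100 bases before the start in HMGCS1, and 94 and 48 bases before it in DHCR7. CCAAT was in 36.1% of all tested promoters and in 4 of 6 mevalonate pathway promoters. Outside sterol synthesis it was in 20 of 28 mitotic, 17 of 33 replication and 9 of 18 ATF4 list promoters, and in 1 of 10 ERK feedback promoters. CCAAT was thus not particular to the sterol genes. On the strand of the gene only, it was in 33.3% of post-squalene, 50% of mevalonate pathway and 21.2% of all tested promoters. The sterol regulatory element letters TCACNCCAC, searched on both strands, were in 1.11% of tested promoters and in 0 of these 15.

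The controllers of the pathway moved both ways. Of 16 genes of SREBP control and lipoprotein uptake 10 fell and 5 rose (8 and 5 when scaled to totals), at a median of −0.29. INSIG1, the sterol-induced retention factor of SREBPs and an SREBP target, went from 209.7, 211 and 213 CPM to 80.8, 79.1 and 80.8 CPM, a fall of 1.4 ± 0.034. SREBF1, the gene of SREBP1, fell by 0.68 ± 0.052. In contrast SREBF2, the gene of SREBP2 itself, rose by 0.16 ± 0.029. Of 11 genes of sterol absorption, efflux and esterification 7 were tested. Of those 3 were higher and 3 lower (4 and 2 when scaled to totals), beside 36% and 33.2% of all genes. ABCA1, the cholesterol efflux pump, rose from 17, 15.8 and 15.4 CPM to 25.1, 26.8 and 27.6 CPM, by 0.72 ± 0.073. SOAT2, an enzyme of cholesteryl ester formation, rose by 0.79 ± 0.083, and SOAT1, its relative, fell by 0.49 ± 0.048, as did SCARB1, the HDL receptor, by 0.59 ± 0.037.

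Fatty acid synthesis fell with sterol synthesis: of 17 genes 16 were tested, 13 lower and 3 higher, at a median of −0.53. FASN, fatty acid synthase, went from 977, 988 and 933 CPM to 448, 458 and 436 CPM, a fall of 1.11 ± 0.027. ACLY, which makes cytosolic acetyl-CoA, fell by 1.09 ± 0.028, ELOVL6 by 1.06 ± 0.07 and the desaturase gene SCD by 1.02 ± 0.027. ACACB, the acetyl-CoA carboxylase that controls fatty acid entry into mitochondria, and MLXIPL, a carbohydrate-responsive factor gene, rose by 0.64 ± 0.059 and 0.66 ± 0.11. In the branches that use mevalonate products, 20 genes of prenylation, coenzyme Q and dolichol were tested. Of these 9 rose and 9 fell (10 and 5 when scaled to totals), beside 36% and 33.2% of all genes. PDSS1, which makes the coenzyme Q tail, fell by 0.84 ± 0.08, while its partner PDSS2 rose by 0.53 ± 0.076.

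Among 13 tested genes of lipoproteins and lipid absorption (15 listed) 7 rose and 4 fell, beside 36% and 33.2% of all genes. FABP1, the liver-type fatty acid-binding protein of enterocytes, rose from 28.8, 30.1 and 30.8 CPM to 54.7, 55.6 and 60.7 CPM, by 0.93 ± 0.056, whereas APOA1 and APOB, the main proteins of HDL and of chylomicrons and LDL, fell by 0.64 ± 0.027 and 0.59 ± 0.028. PPARA, the fatty acid-sensing receptor gene, went from 30.4, 28.2 and 28.7 CPM to 52.5, 52.5 and 60.6 CPM, a rise of 0.92 ± 0.058, and the carnitine palmitoyltransferase gene CPT1A fell by 0.65 ± 0.081. Fatty acid oxidation and ketogenesis had 6 higher and 8 lower of 18 (9 and 6 when scaled to totals), beside the same shares.

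Genes of DNA replication fell almost without exception. Of 38 genes 36 fell and 2 rose (36 and 0 with RLE scaling), at a median of −0.90 beside 0.04 for all genes tested. RRM2, the regulated subunit of ribonucleotide reductase, stood at 225, 228 and 224 CPM with lovastatin alone and at 58.8, 59 and 57.2 CPM with SGA315, a fall of 1.95 ± 0.037 on the log2 scale. UHRF1, which maintains DNA methylation at replication, went from 80.3, 84.7 and 81.4 CPM to 21.8, 23.7 and 20.6 CPM, a fall of 1.90 ± 0.057. PCNA, the replication clamp, went from 285, 288 and 281 CPM to 104, 104 and 106 CPM, a fall of 1.44 ± 0.032. In all 3 genes every SGA315 library lay below every lovastatin library. The choice of RRM2 and UHRF1 among the largest falls requires that, and 70.4% of all genes had no overlap. The 6 subunits of the MCM helicase fell by similar amounts, from 1.00 ± 0.037 for MCM6 to 1.19 ± 0.036 for MCM4, with MCM2 at −1.08, MCM3 at −1.07, MCM5 at −1.18 and MCM7 at −1.08. PRIM1, a primase subunit, and RFC4, a clamp loader subunit, rose by 0.12 ± 0.055 and 0.13 ± 0.056. Neither call held with RLE scaling, DESeq2, no low-count filter, a fit of these 2 groups only, the lowest accession per gene or removal of ribosomal RNA entries. That of PRIM1 ended without any 1 of the 6 libraries, and that of RFC4 without lovastatin replicate 1 or 3 or SGA315 replicate 1 or 2, with an adjusted p of up to 0.35 and 0.354 (both without lovastatin replicate 1).

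Mitotic genes fell by less. Of 33 genes 31 fell and 0 rose, at a median of −0.56. MKI67, the proliferation marker, went from 377, 388 and 376 CPM to 178, 178 and 186 CPM, a fall of 1.07 ± 0.032. CDK1, the mitotic kinase, fell by 0.88 ± 0.034, NCAPH, a condensin subunit, by 1.01 ± 0.053, and PLK1, polo-like kinase, from 118, 116 and 114 CPM to 65.6, 72.1 and 66.4 CPM, by 0.77 ± 0.042. NDC80 and NUF2, kinetochore genes, had log2 fold changes of −0.07 ± 0.047 and −0.12 ± 0.064 and were not called (adjusted p = 0.174 and 0.0852). DNA repair and checkpoint genes had 19 lower and 2 higher of 21, and the 2 were the apical kinases ATM, from 107, 107 and 109 CPM to 168, 154 and 176 CPM (rise of 0.63 ± 0.037), and ATR (rise of 0.44 ± 0.057). CLSPN, the claspin gene, fell by 1.16 ± 0.062.

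Upstream of both, of 26 G1 cyclins, kinases, E2F factors and inhibitors 18 fell and 3 rose. CCND1, cyclin D1, went from 303, 318 and 286 CPM to 140.5, 138 and 128 CPM, a fall of 1.15 ± 0.038, and CCNE1, cyclin E1, from 29.2, 29.9 and 30.2 CPM to 12.6, 11.2 and 12.1 CPM, a fall of 1.32 ± 0.074. The E2F genes fell in the order E2F8 (−1.58), E2F2 (−1.47), E2F7 (−1.32) and E2F1 (−1.12). MYBL2, which switches on late cell cycle genes, fell by 1.31 ± 0.03. Inhibitors moved unequally: CDKN1B (p27) rose by 0.28 ± 0.032, RB1 by 0.36 ± 0.052 and RBL2 by 0.27 ± 0.04, and CDKN1A (p21) fell by 1.17 ± 0.18, from 5.19, 3.98 and 5.32 CPM to 2.30, 2.03 and 2.12 CPM. Of 17 p53 targets 16 were tested. Of those 6 were higher and 4 lower (9 and 2 when scaled to totals), beside 36% and 33.2% of all genes.

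Promoters of PCNA, MCM6, PLK1 and MKI67 are shown because their lists stood out in the letters searched. Capitals mark the E2F site (TTTCCCGC or TTTGGCGC, either strand) in PCNA and MCM6, and the CHR element (TTTGAA, either strand), a site of the DREAM complex, in PLK1 and MKI67. They are RefSeq windows on GRCh38.p14: PCNA at chr20:5126623-5126872, MCM6 at chr2:135876444-135876693 and MKI67 at chr10:128126424-128126673 on the minus strand, and PLK1 at chr16:23678639-23678888 on the plus strand.
PCNA: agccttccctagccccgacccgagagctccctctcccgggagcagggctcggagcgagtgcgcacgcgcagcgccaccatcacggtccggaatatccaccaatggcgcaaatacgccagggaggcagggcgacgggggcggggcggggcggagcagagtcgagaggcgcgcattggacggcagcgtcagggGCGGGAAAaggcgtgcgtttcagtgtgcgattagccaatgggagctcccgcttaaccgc
MCM6: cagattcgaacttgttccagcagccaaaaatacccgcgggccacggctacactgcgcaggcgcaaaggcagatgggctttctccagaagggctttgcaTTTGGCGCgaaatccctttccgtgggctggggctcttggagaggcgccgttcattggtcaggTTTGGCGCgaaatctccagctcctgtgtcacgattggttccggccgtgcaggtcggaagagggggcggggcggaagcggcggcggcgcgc
PLK1: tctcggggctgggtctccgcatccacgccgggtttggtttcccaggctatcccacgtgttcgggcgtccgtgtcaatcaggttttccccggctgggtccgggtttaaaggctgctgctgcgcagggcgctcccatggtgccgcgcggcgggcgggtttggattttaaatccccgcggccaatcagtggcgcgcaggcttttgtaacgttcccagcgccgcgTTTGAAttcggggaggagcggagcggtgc
MKI67: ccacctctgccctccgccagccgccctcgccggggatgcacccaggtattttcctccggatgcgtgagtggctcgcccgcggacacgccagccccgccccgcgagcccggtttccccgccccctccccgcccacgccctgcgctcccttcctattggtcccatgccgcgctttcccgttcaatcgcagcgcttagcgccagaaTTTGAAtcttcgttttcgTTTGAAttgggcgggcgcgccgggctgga
The E2F letters were in 16 of 33 replication promoters (48.5%), in 2 of 28 mitotic promoters and in 3.66% of all tested promoters. The CHR letters were in 19 of 28 mitotic promoters (67.9%), in 1 of 33 replication promoters and in 9.85% of all. Over all tested genes, whether in a list or not, the E2F letters were in 9.09% of the 231 promoters of genes that fell at least 2-fold and in 2.15% of the 512 of genes that rose at least 2-fold. On the strand of the gene only, these shares were 2.6% and 0.977%, beside 2.09% of all tested promoters. The members were chosen by function, and a match is a description of the letters only.

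Genes that report on growth factor signalling fell. Of 17 ERK feedback and ETS target genes 16 were tested, 15 lower and 1 higher, at a median of −0.82. FOSL1, an AP-1 subunit, went from 11.9, 12.2 and 11.4 CPM to 2.30, 3.65 and 2.35 CPM, a fall of 2.09 ± 0.14. DUSP6, the phosphatase that switches ERK off, went from 30.8, 29.4 and 28.9 CPM to 11.3, 11.3 and 12 CPM, a fall of 1.36 ± 0.081. SPRY4, a receptor signalling inhibitor, fell by 1.34 ± 0.072, DUSP5 by 1.56 ± 0.059, EPHA2, an ephrin receptor, by 1.68 ± 0.051 and ETV5, an ETS factor, by 1.24 ± 0.077. SPRED3 alone rose, by 0.63 ± 0.12. EGR1, an immediate early factor, went from 39.6, 36.7 and 40.8 CPM to 10.6, 10.5 and 8.78 CPM, a fall of 1.97 ± 0.075, and FOS fell by 1.42 ± 0.14. Of 13 tested AP-1 and immediate early genes 11 fell and 1, ATF3, rose, a call that ended with DESeq2 (adjusted p = 0.0606), without lovastatin replicate 1 (0.155) and without SGA315 replicate 3 (0.103). SOS1, the exchange factor that loads Ras with GTP, rose from 118, 112 and 112 CPM to 267, 246 and 254 CPM, by 1.17 ± 0.034, with no overlap. Of 17 tested EGFR ligands and receptor tyrosine kinases 7 were higher and 7 lower, close to the 36% and 33.2% of all genes, with ERBB3 up by 0.56 ± 0.033 and FGFR1 down by 0.81 ± 0.049.

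Of 18 Wnt targets and crypt genes 17 were tested and 16 fell, at a median of −0.64. LGR5, the stem cell receptor, went from 54.4, 55 and 53.7 CPM to 19.5, 20.7 and 18.5 CPM, a fall of 1.47 ± 0.06. AXIN2, a feedback inhibitor of Wnt, fell by 0.92 ± 0.046, NKD1 by 1.15 ± 0.058, RNF43 by 0.68 ± 0.041 and LEF1, a Wnt-responsive factor, by 1.16 ± 0.20. Among BMP and ID genes 8 of 13 fell and 3 rose, with BMP7 down by 0.99 ± 0.036 and SMAD6, a BMP feedback inhibitor, by 0.74 ± 0.10. Beside the fall of ID1 given above, ID2 fell by 0.33 ± 0.044. TGFB1 went from 31.7, 38.7 and 31.2 CPM to 12.6, 13.5 and 16.1 CPM, a fall of 1.27 ± 0.08, and its receptor gene TGFBR2 fell by 0.82 ± 0.039. Of 15 YAP targets and pathway genes 11 fell and 1 rose, with ANKRD1 down by 0.90 ± 0.049, CCN1 by 0.80 ± 0.059 and TEAD4, a partner of YAP, by 0.88 ± 0.055.

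Genes of the actin cytoskeleton moved with them. This list was assembled after the fall of ACTB had been seen, so its count, like those of the other lists, is no independent support. Of 26 genes 25 fell and 0 rose, at a median of −0.63. ACTB, beta-actin, went from 2189.8, 2156 and 2082 CPM to 872, 882 and 856 CPM, a fall of 1.30 ± 0.028. MYL9, a myosin light chain, fell by 1.42 ± 0.04, TAGLN2 by 1.28 ± 0.032, CFL1, cofilin, by 1.01 ± 0.027 and ACTG1, gamma-actin, by 0.24 ± 0.026. All 5 tested keratins (of 12) fell. KRT8 went from 3466, 3517 and 3461 CPM to 1507, 1546 and 1427 CPM and KRT18 from 1606, 1655 and 1635 CPM to 715, 735 and 699.9 CPM, falls of 1.22 ± 0.03 and 1.19 ± 0.028. These partner keratins overlap in the annotation, so some reads may count for both. KRT19 fell by 0.62 ± 0.028. VIM, vimentin, rose from 162, 170.1 and 168 CPM to 287, 299 and 298 CPM, by 0.82 ± 0.03, while 9 of the 11 tested mesenchymal and adhesion genes fell.

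Genes of glycolysis and of oxidative phosphorylation mostly fell. Of 26 tested genes of glycolysis and glucose transport 19 fell and 4 rose, at a median of −0.74. PKM, pyruvate kinase, went from 1316, 1359 and 1346 CPM to 475, 502 and 455 CPM, a fall of 1.49 ± 0.03. LDHA, lactate dehydrogenase A, went from 764, 778 and 765 CPM to 303, 309 and 312 CPM, a fall of 1.32 ± 0.028. PGAM1 fell by 1.15 ± 0.03, PFKP by 0.99 ± 0.032, SLC2A3, the GLUT3 gene, by 1.15 ± 0.031 and GAPDH, often used as a reference gene, by 0.53 ± 0.027. ENO2, KHK, the fructose kinase, SLC2A2 and SLC2A5, the fructose transporter of the intestine, were the 4 that rose, with KHK up by 0.49 ± 0.11. The call of SLC2A2 ended with DESeq2 (adjusted p = 0.0583) and without lovastatin replicate 1 (0.135). That of SLC2A5 ended with DESeq2 (0.135) and without 4 of the libraries: SGA315 replicate 1 (0.3), SGA315 replicate 2 (0.0685), lovastatin replicate 2 (0.0837) and lovastatin replicate 3 (0.101). Hypoxia targets had 6 higher and 8 lower of 17 (8 and 7 when scaled to totals), beside 36% and 33.2% of all genes. Nuclear genes of oxidative phosphorylation had 66 lower and 3 higher of 75 (82 listed), at a median of −0.39, led by COX6B1 with a fall of 0.92 ± 0.04. Mitochondrial ribosomal proteins had 51 lower and 11 higher of 76 (37 and 17 when scaled to totals).

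**Figure D3:**
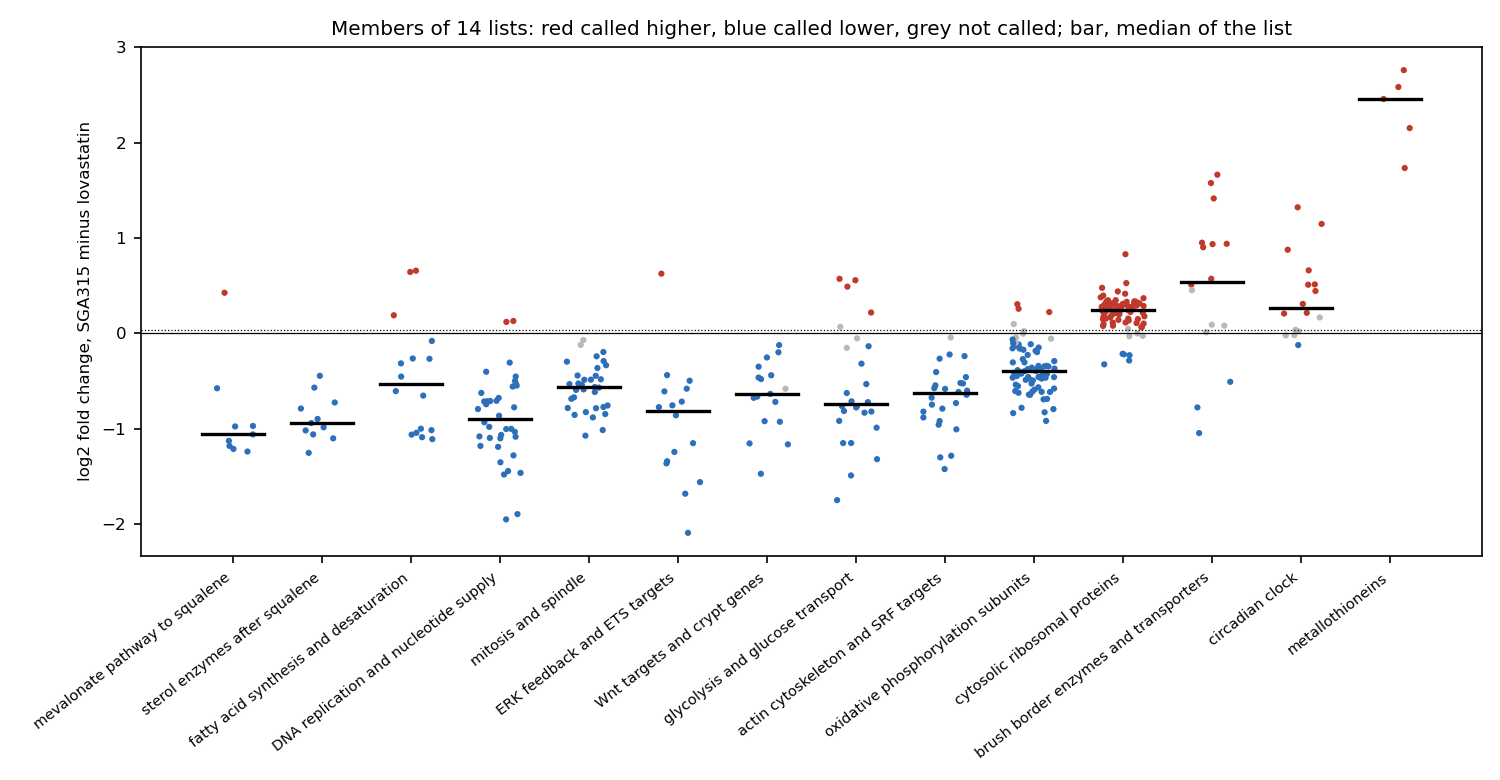
Each point is 1 tested member of 14 lists, by its log2 fold change (lovastatin + SGA315 minus lovastatin), red where called higher, blue where called lower and grey where not called, with a bar at the median of the list and a dotted line at the median of all genes (0.04). Points are spread sideways at random. The medians run from −1.06 for the mevalonate pathway to 0.25 for cytosolic ribosomal proteins and 2.46 for the metallothioneins.

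The protein synthesis machinery was divided. Cytosolic ribosomal protein genes rose, 70 higher and 5 lower of 79 (83 listed), at a median of 0.25, with RPS29 among the largest at 0.53 and RPS26 and RPS15 lower, at −0.29 and −0.23. A list of translation factors, added after the gain of EEF1A1 had been seen, had 19 higher and 7 lower of 30. Within it EIF4E, the cap-binding factor, went from 92.3, 91.6 and 94.7 CPM to 55.2, 57.6 and 52 CPM, a fall of 0.76 ± 0.043, and EIF5A fell by 0.94 ± 0.032. Genes that build ribosomes fell, 20 lower and 2 higher of 25, at a median of −0.37, with TCOF1, a nucleolar factor for ribosomal RNA synthesis, from 359, 362 and 356 CPM to 181, 179 and 179 CPM (fall of 1.00 ± 0.028) and NPM1 up by 0.22 ± 0.028. Of 16 genes of mTOR and its regulators 11 rose and 2 fell, beside 36% and 33.2% of all genes. RRAGD, a Rag GTPase, went from 7.81, 7.96 and 7.92 CPM to 18.7, 20.5 and 19.8 CPM, a rise of 1.31 ± 0.09, DDIT4, an mTOR inhibitor, rose by 0.79 ± 0.035, and SESN3 by 0.59 ± 0.044. SLC7A5, the leucine transporter, fell by 0.99 ± 0.029, from 830.2, 837 and 799.9 CPM to 416, 424 and 399.6 CPM, while SLC7A9, the brush border cystine transporter, rose by 1.22 ± 0.14.

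Proteasome subunits had 31 lower and 1 higher of 35, at a median of −0.34, with PSMB3 down by 0.75 ± 0.036. Heat shock genes had 12 lower and 1 higher of 15 (12 and 0 with RLE scaling), with HSPE1, the mitochondrial co-chaperonin, from 219, 214 and 217 CPM to 93.6, 99.7 and 95.3 CPM (fall of 1.17 ± 0.034) and HSP90AA1 down by 0.99 ± 0.027. Of 20 endoplasmic reticulum chaperones 12 fell and 5 rose (11 and 8 when scaled to totals), beside 33.2% and 36% of all genes. CALR, calreticulin, fell by 0.71 ± 0.027, and ERN1, the stress sensor IRE1, rose by 0.79 ± 0.053. Lysosome and autophagy genes had 8 higher and 13 lower of 27 (10 and 9 scaled to totals), beside 36% and 33.2% of all genes.

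In the list of ATF4 targets, 22 genes were tested. Of these 11 rose and 9 fell (14 and 6 when scaled to totals), beside 36% and 33.2% of all genes. NUPR1, a stress-induced nuclear protein gene, went from 0.808, 0.601 and 0.714 CPM to 6.85, 5.33 and 6.74 CPM, a rise of 3.13 ± 0.23 on the log2 scale with no overlap. TRIB3, a stress-induced pseudokinase gene, rose by 0.44 ± 0.028 and ASNS, asparagine synthetase, by 0.34 ± 0.029, while CHAC1, a glutathione-degrading target, fell by 0.45 ± 0.062. The rise of DDIT3, 1.06 ± 0.042, is uncertain because its model lies across that of MARS1, a more abundant gene. NRF2 targets had 17 lower and 5 higher of 23, at a median of −0.46. PRDX1, a peroxidase gene, went from 516, 529 and 524 CPM to 234, 243 and 230.3 CPM, a fall of 1.15 ± 0.027. ABCC3, a basolateral conjugate exporter, rose by 1.09 ± 0.047 and AKR1C3 by 0.84 ± 0.051.

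Metallothioneins, cysteine-rich buffers of zinc and copper, stood at low levels with lovastatin alone. Of 10 listed 5 were tested and called higher, and members share sequence, so their counts are uncertain. MT1E was above the low-count filter by its SGA315 mean and not by its lovastatin mean, and MT1G by its SGA360 mean only, so the count of 5 is no support. MT2A had 1.28, 0.676 and 1.56 CPM with lovastatin alone and 9.08, 8.49 and 6.66 CPM with SGA315 (log2 fold change 2.76 ± 0.20), and MT1X had 0.674, 1.5 and 1.49 CPM and 5.79, 5.68 and 4.77 CPM. The groups did not overlap in either gene. The median of the 5, 2.46, is the value of MT1G, which rested on 1 count with lovastatin alone and 7 with SGA315, and the median of the other 4 was 2.37. The call of MT1G ended with DESeq2 (adjusted p = 0.0783), with no low-count filter (0.075) and without lovastatin replicate 1 (0.138), lovastatin replicate 3 (0.144) or SGA315 replicate 2 (0.212). The MT2A promoter is shown for its many metal response element cores: chr16:56608334-56608583, plus strand (RefSeq, GRCh38.p14), with the core TGCACNC and its common variant form TGCGCNC in capitals on either strand, 7 in these 250 bases.
MT2A: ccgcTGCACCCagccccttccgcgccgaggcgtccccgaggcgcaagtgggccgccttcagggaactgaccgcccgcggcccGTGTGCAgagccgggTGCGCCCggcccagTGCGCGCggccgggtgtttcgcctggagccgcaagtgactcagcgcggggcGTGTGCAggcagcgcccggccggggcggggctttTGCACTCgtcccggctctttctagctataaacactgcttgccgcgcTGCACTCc
The same letters were in 38.4% of tested promoters. SLC30A1, the zinc exporter induced by zinc, rose by 0.23 ± 0.066, and SLC39A5, a zinc importer, went from 60.4, 65.7 and 68 CPM to 129, 123 and 125 CPM, a rise of 0.96 ± 0.041.

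Of 18 brush border enzymes and transporters of the absorptive cell 16 were tested, 9 higher and 3 lower (7 and 3 with DESeq2). The shares of all genes were 36% and 33.2%, and the median of the list was 0.54. ALPI, intestinal alkaline phosphatase, went from 7.27, 7.89 and 7.59 CPM to 22.2, 22.4 and 23.2 CPM, a rise of 1.58 ± 0.088. ANPEP, aminopeptidase N, went from 14.5, 16.1 and 17.7 CPM to 31.2, 31.1 and 31.2 CPM, a rise of 0.95 ± 0.071. SLC15A1, the peptide transporter PEPT1, rose by 0.90 ± 0.11, and SI, sucrase-isomaltase, by 1.41 ± 0.34 from a mean of 0.498 to 1.36 CPM. LCT, lactase, fell by 1.05 ± 0.30, SLC5A1, the sodium-glucose transporter, by 0.78 ± 0.24 (adjusted p = 0.0527 without SGA315 replicate 3), and DPP4, the most abundant of the list, from 298, 299 and 313 CPM to 206, 213 and 222 CPM, by 0.51 ± 0.03. However, 5 of the 16, SI among them, were above the low-count filter by their SGA315 mean and not by their lovastatin mean. Those were tested only through the group in which they were higher, so they are no support for a rise of the list. Of 16 microvillus genes 14 were tested, 9 higher and 4 lower, beside the same shares of all genes. MYO1A, brush border myosin, rose from 4.04, 5.33 and 4.93 CPM to 11.5, 14.2 and 14.8 CPM, by 1.5 ± 0.12, and CUBN, cubilin, the receptor for intrinsic factor with vitamin B12, by 0.81 ± 0.07. VIL1, villin, fell by 0.33 ± 0.03 and EZR, ezrin, by 0.59 ± 0.029.

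Of 17 tested intestinal transcription factors 4 were higher and 6 lower (7 and 5 when scaled to totals), beside 36% and 33.2% of all genes. CDX2, the caudal homeobox factor of intestine, rose from 75.9, 76.8 and 75.1 CPM to 116, 118 and 117 CPM, by 0.63 ± 0.037. GATA6, a factor of endoderm, fell by 0.74 ± 0.031. Tight junction genes had 4 higher and 10 lower of 16 (5 and 5 when scaled to totals), beside the same shares. CLDN2, a pore-forming claudin, was down by 1.26 ± 0.14 and CLDN3 up by 0.67 ± 0.077. SPDEF, a goblet cell factor, fell from 3.10, 4.43 and 3.24 CPM to 1.45, 0.982 and 0.909 CPM, by 1.65 ± 0.22. Of 16 tested plasma protein genes 7 were higher and 8 lower, beside the same 36% and 33.2% of all genes. AHSG, fetuin-A, rose from 130.4, 137 and 144 CPM to 339, 339 and 372 CPM, by 1.35 ± 0.036, and C3, complement factor 3, by 1.21 ± 0.051, while FGA, fibrinogen alpha, fell from 90.9, 82 and 92 CPM to 41.1, 41.7 and 47.7 CPM, by 1.03 ± 0.051.

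Of 16 circadian clock genes 10 rose and 1 fell (11 and 0 when scaled to totals), beside 36% and 33.2% of all genes. DBP, a clock output factor, went from 7.34, 6.91 and 7.79 CPM to 12.2, 15.6 and 12.7 CPM, a rise of 0.88 ± 0.10, NR1D2, REV-ERB beta, rose by 0.66 ± 0.049 and BMAL1, the core activator, by 0.51 ± 0.085. Of 18 tested nuclear receptors (23 listed) 11 rose and 4 fell, beside 36% and 33.2% of all genes. NR3C1, the glucocorticoid receptor, went from 30.7, 30.3 and 32.9 CPM to 50.6, 52.3 and 56.3 CPM (rise of 0.76 ± 0.056). NR5A2, a sterol and bile acid regulator, rose by 0.96 ± 0.1. Zinc finger genes with ZNF names had 214 higher and 47 lower of 404 tested, at a median of 0.24. LINC-named RNAs had 93 higher and 17 lower of 171 tested, a small part of the 2304 listed, and LINC00673 went from 8.89, 9.09 and 9.54 CPM to 22.3, 21.3 and 20.6 CPM, a rise of 1.22 ± 0.086. Both groups are of low level, the range in which more genes rose than fell. Of the LINC-named RNAs, 22 were above the low-count filter by their SGA315 mean and not by their lovastatin mean, and 3 the other way round. For the ZNF-named genes these numbers were 8 and 1. The direction of such members follows from that split and is no support. Interferon-stimulated genes had 7 higher and 5 lower of 18, near the 36% and 33.2% of all genes, with IFIT3 up by 1.38 ± 0.14, and among 14 tested chemokines and NF-kappaB targets 7 rose and 2 fell, with BIRC3, an apoptosis inhibitor, up by 1.46 ± 0.12 and CCL20 down by 1.13 ± 0.15.

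**Figure D4:**
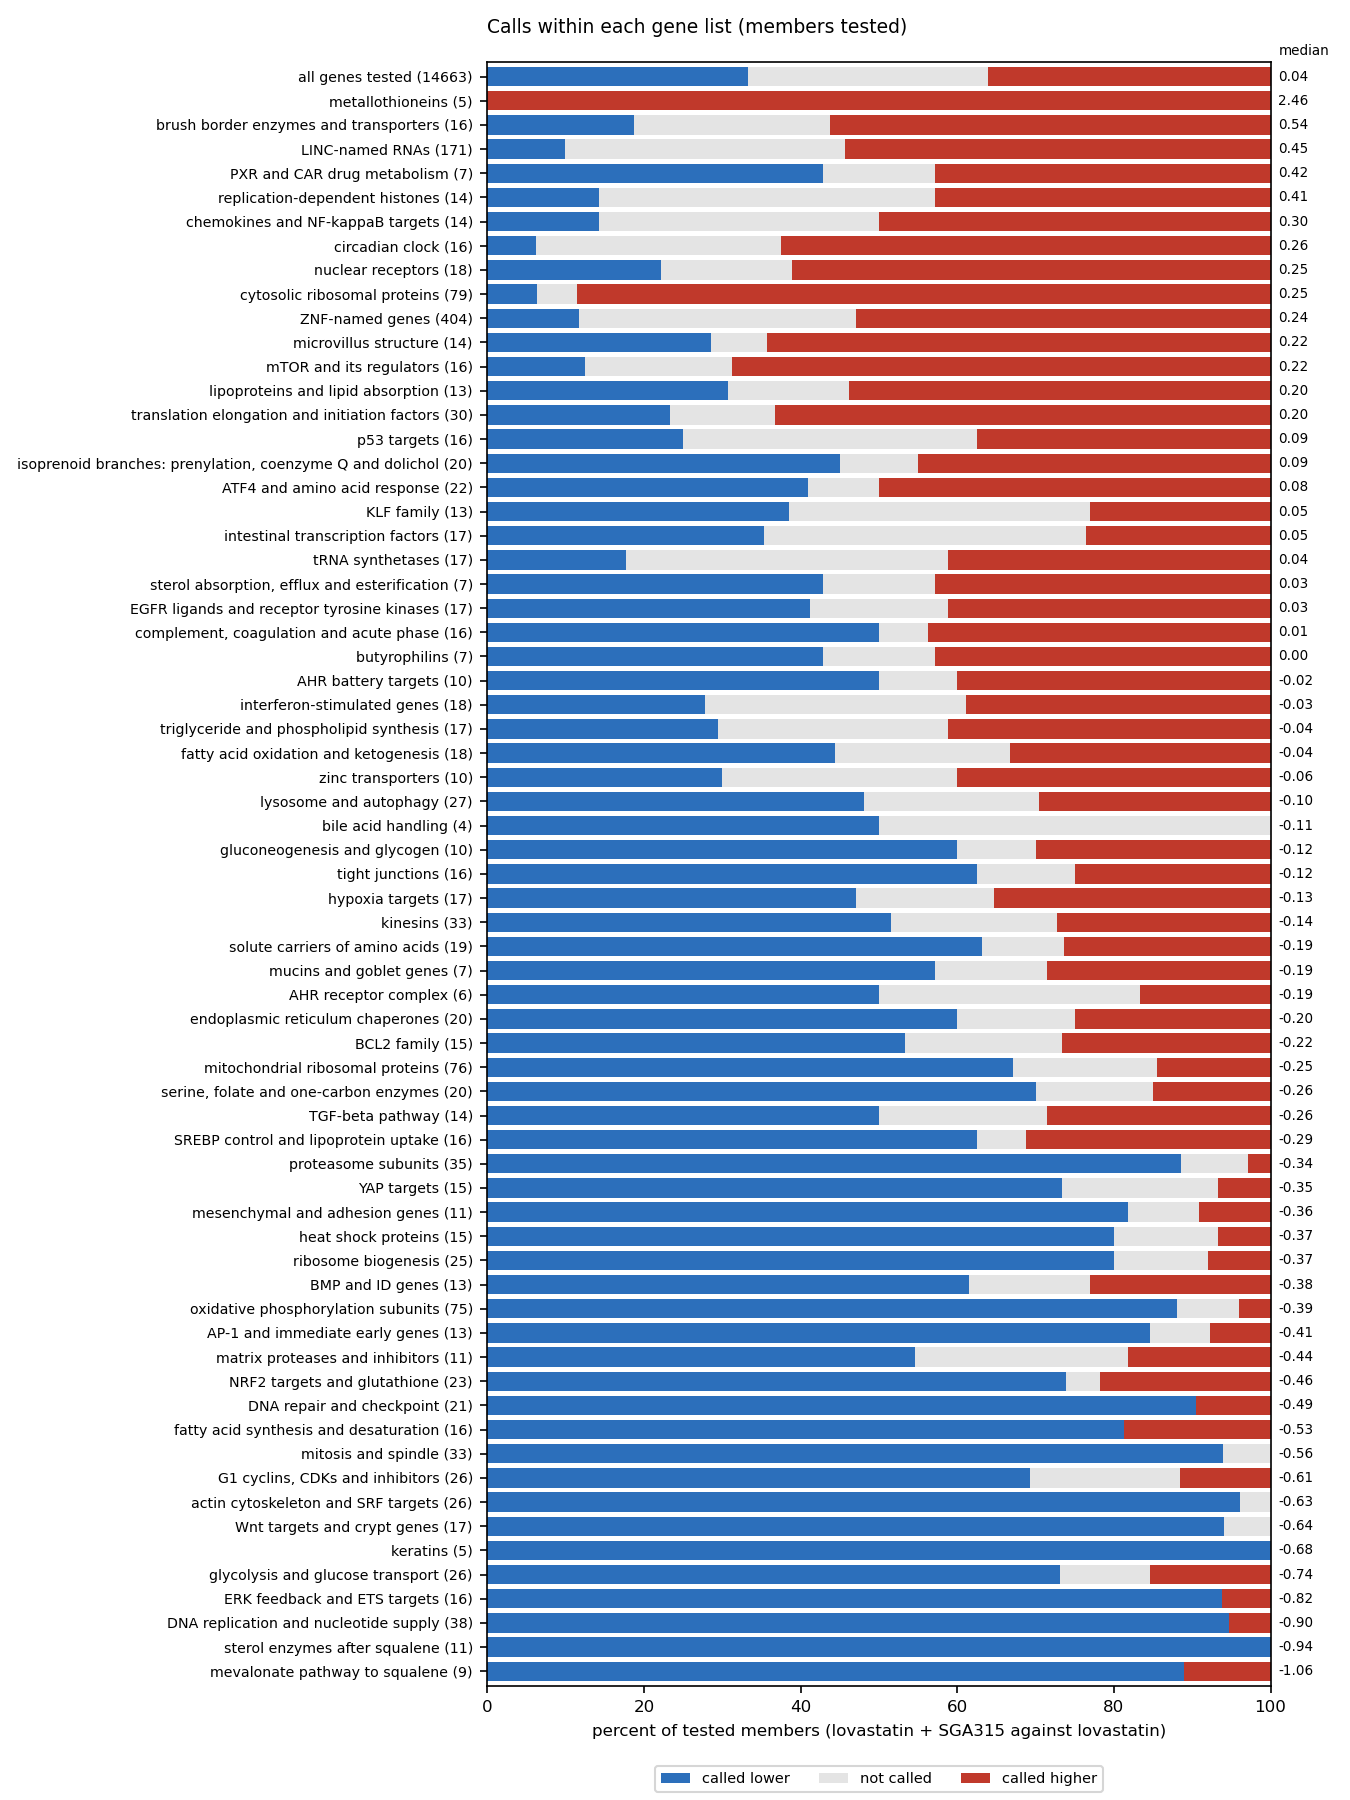
For each of 66 lists and all genes tested, the percent of tested members called lower (blue), not called (grey) and called higher (red) in lovastatin + SGA315 against lovastatin, with the number tested in brackets and the median log2 fold change at the right. Lists of sterol synthesis, replication, ERK feedback, glycolysis, keratins and Wnt targets hold the lowest medians, from −1.06 to −0.64. With scaling to totals only most medians are about 0.12 higher.

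SGA315 and SGA360 were compared directly, at the same dose and time, as the only pair of compounds. Of 14663 genes, 3063 were higher and 3197 lower with SGA315 than with SGA360 (42.7% called, 20.9% higher and 21.8% lower), with 139 and 67 at 2-fold or more, and the median size of a called difference was 0.25. In 49.2% of genes the 2 compounds' values did not overlap, 24.6% in each direction. CYP1A1 had 5.25, 5.92 and 5.19 CPM with SGA360, below every lovastatin library, while SGA315 took it above, a difference of 7.58 ± 0.05 on the log2 scale (95% interval 7.48 to 7.69, adjusted p = 2.23e-79). CYP1B1 had 1.27, 1.39 and 1.81 CPM with SGA360, a difference of 3.20 ± 0.15 (95% interval 2.91 to 3.49). Of 10 tested AHR battery genes 9 were higher and 1 lower with SGA315 than with SGA360. ALDH3A1, not called against lovastatin alone, was among them, at 2.47, 1.97 and 2.44 CPM with SGA360 and a difference of 1.93 ± 0.15. CUBN had 40.2, 34 and 36.9 CPM with SGA315 and 9.95, 6.96 and 7.01 CPM with SGA360, on either side of the 20.8, 21.3 and 21.2 CPM with lovastatin alone. SOS1 had 88.4, 82 and 86.4 CPM with SGA360, a difference of 1.58 ± 0.035.

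Other genes were lower with SGA315. Metallothioneins rose less, with MT2A at 32.9, 34.5 and 40.9 CPM with SGA360 and a difference of −2.14 ± 0.089. All 5 tested members differed in this direction, but members share sequence. MT1G was above the low-count filter by its SGA360 mean only, so the count of 5 is no support. ID1 stood at 41.1, 43.4 and 39.3 CPM with SGA360, a difference of −1.54 ± 0.069, and TGFB2 at 28.2, 29.6 and 29.8 CPM with SGA360 and 11.6, 12.7 and 11.1 CPM with SGA315, a difference of −1.30 ± 0.074. KRT4, CHI3L1, CPA6, GNG2 and ADORA1 completed the largest differences with EDN1, between −1.19 ± 0.09 for ADORA1 and −2.02 ± 0.12 for KRT4. Sterol synthesis was lower with SGA315 than with SGA360 for 8 of 9 mevalonate pathway genes and for 11 of 11 genes after squalene, both at a median difference of −0.41. Against lovastatin alone SGA360 also lowered 8 of these 9 and 9 of these 11, at medians of −0.59 and −0.55. In replication 27 of 38 genes were lower with SGA315, 0 were higher, and the median difference was −0.23. SGA360 itself lowered 35 of the 38 against lovastatin alone, at a median of −0.66. YAP targets were lower for 12 of 15 at a median of −0.52, and glycolysis and glucose transport for 20 of 26 at −0.18. With SGA360 against lovastatin alone, 5 YAP targets were lower and 5 higher (median 0.05). In glycolysis and glucose transport 19 were lower and 5 higher (median −0.47).

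In other groups the median difference was near 0. For mitosis the median difference was −0.02, with 4 higher and 12 lower of 33, and for oxidative phosphorylation −0.04, with 9 higher and 17 lower of 75. Of all genes 20.9% were higher and 21.8% lower with SGA315 than with SGA360. FOSL1 had 3.32, 3.31 and 2.13 CPM with SGA360 and a difference of −0.11 ± 0.19 that was not called (95% interval −0.49 to 0.27, adjusted p = 0.67). ABCA1 differed by 0.03 ± 0.065 (95% interval −0.10 to 0.16), INHBE by 0.07 ± 0.066 (95% interval −0.06 to 0.21) and IL1R2 by −0.16 ± 0.17 (95% interval −0.50 to 0.18), with no call for any of these. These intervals bound the difference but do not show that the compounds act alike.

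**Figure D5:**
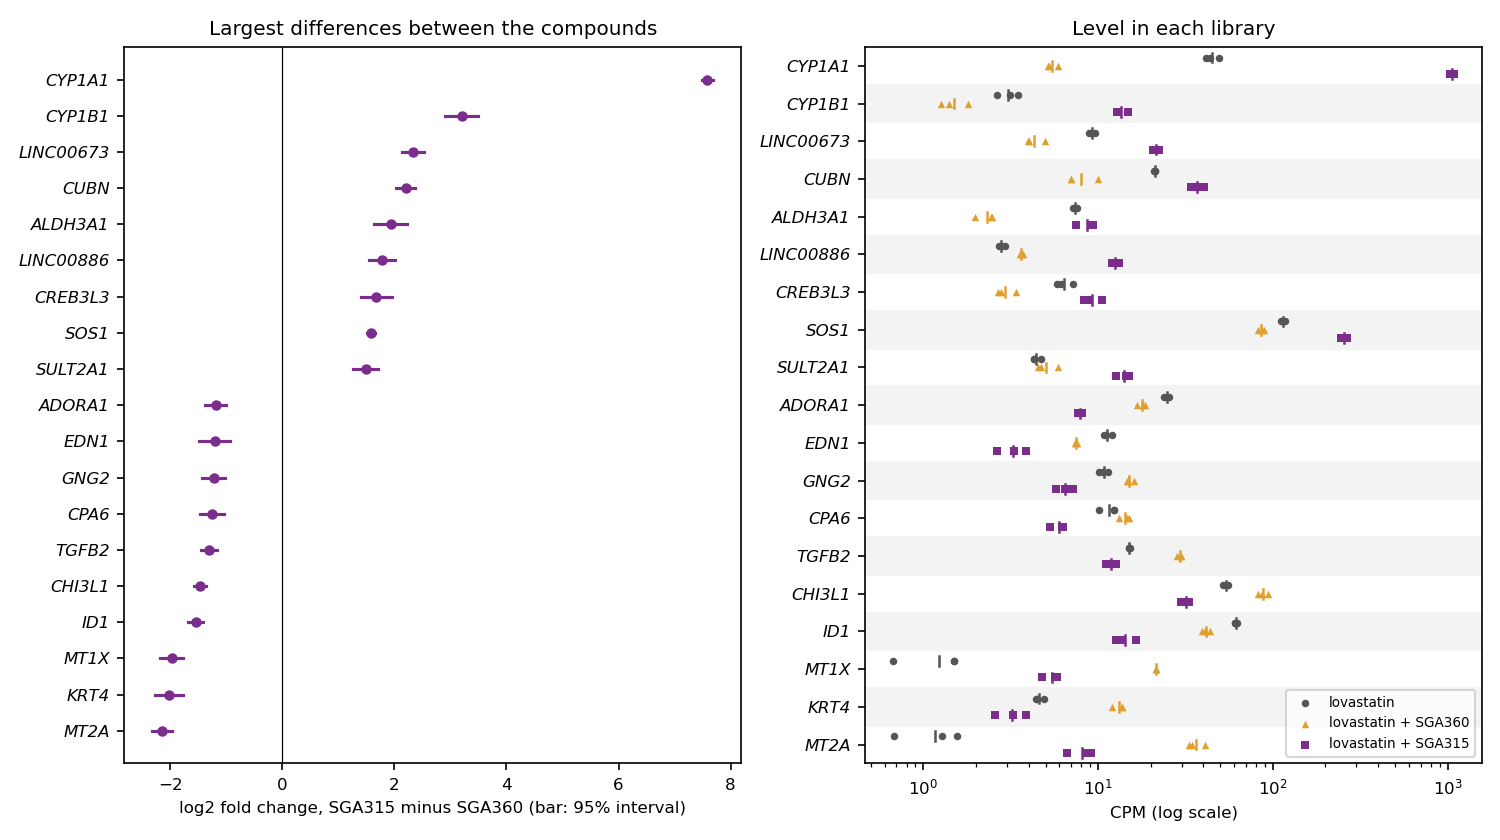
Left, the log2 fold change between lovastatin + SGA315 and lovastatin + SGA360 with its 95% interval for 9 of the 10 genes highest and the 10 genes lowest with SGA315 by the naming rule. Right, CPM on a log scale in each library of lovastatin (grey circles), lovastatin + SGA360 (orange triangles) and lovastatin + SGA315 (purple squares), with a short line at each mean of 3. CYP1A1 has the largest difference, 7.58, with its orange symbols left of the grey and its purple symbols right of them.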

How the data were processed

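Poly(A)-enriched RNA of 9 Caco-2 libraries was sequenced, and the deposited table gives whole read counts per transcript entry. The submitters' processing notes name TopHat2 2.0.13, HTSeq 0.5.4p3 and build hg19 for making these counts. Strand setting, annotation and filters: not given in the sources used here. Of 65325 entries 64340 matched RefSeq and 551 GENCODE, and 434 (0.255% of counts) had no symbol and were left out. Each gene was represented by its entry of highest total in the 9 libraries, leaving 27623 genes. Entries of 1 gene can repeat the same reads, so their sum is 3.11 times the depth used here. Of 49 sets of genes with identical counts 1 member each was kept (73 dropped).

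Counts were tested with edgeR 4.0.16 (R 4.3.3) and its quasi-likelihood test, scaled by TMM and fitted to all 9 libraries, with a minimum count of 10 and total of 15, and Benjamini-Hochberg adjustment over 14663 genes. All adjusted p-values and intervals (95%) are from this fit, and a value after ± is the standard error of a log2 fold change. CPM values are scaled by the same factors. On simulated counts with 200 changed genes of 14663 it recovered 94% at 2-fold and 66% at 1.25-fold, with 3.6% of calls false, for SGA315 against lovastatin alone. For SGA315 against SGA360 it recovered 96% and 67.3%, with 3.6% false. The simulations changed 200 genes, equally many up and down, while 69.2% of genes were called against lovastatin alone in the data. These shares may therefore not hold for the data. Precision was limited by 3 libraries per group. Deviations of same-numbered libraries of different groups were hardly correlated (r between −0.024 and 0.046), as were those of the other pairs (−0.057 to 0.034). The numbers were therefore not used. Alternatives were RLE scaling, totals only, DESeq2 1.42.0, no filter, a fit of 2 groups, a replicate block, a test against 1.5-fold, the lowest accession per gene and leaving out each library. Removal of the ribosomal RNA entries was added after the data were seen.

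The comparison and the 65 gene lists were chosen with earlier results of these data known, and 2 lists (actin cytoskeleton and SRF targets, and translation factors) were added after values were seen. Named genes are the 12 largest rises and falls of at least 5 CPM, and the 8 largest CPM gains and losses. Both were taken among called genes without overlap. The rule adds the 5 smallest p-values of each list and up to 2 called members on the other side of its median. It also adds the 10 largest differences each way from SGA360, by the filters of the rises and falls, and a fixed set. ACTG1, BMAL1, CCNE1, CFL1, CHAC1, CPT1A, E2F2, E2F7, EBP, EIF4E, EIF5A, ELOVL6, ERN1, ETV5, FDFT1, FOS, GSTA1, HSD17B7, LEF1, MCM2, MCM3, MCM5, MCM6, MVK, MYL9, NCAPH, NDC80, NSDHL, NUF2, NUPR1, PDSS2, PFKP, PLK1, RBL2, RNF43, SLC30A1, SLC5A1, SLC7A9, SMAD6 and TAGLN2 were chosen outside this rule, after their values were seen. Some genes that the rule names, and 1 list, are not reported here. Promoters are RefSeq sequences (GRCh38.p14), matched by symbol for 11477 of 14663 tested genes. Motifs were searched on both strands.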

Additional observations from a re-analysis of the deposited data

How the results depend on the processing

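Counts of genes called in SGA315 against lovastatin alone lay between 4298 and 6919 for rises and between 3627 and 5107 for falls over RLE scaling, totals only, DESeq2, no filter, the 2-group fit, the lowest accession and removal of ribosomal RNA entries. Leaving out 1 library gave 4769 to 5060 rises and 4722 to 4837 falls. Against SGA360 the same leave-outs gave 2571 to 2887 higher and 2758 to 3039 lower genes. Only the test against a 1.5-fold change moved a count by over 1.5 times, to 826 higher and 752 lower against lovastatin alone and to 108 higher and 75 lower against SGA360. With the replicate number as a block the counts were 5343 and 4924 against lovastatin alone, and 3152 and 3280 against SGA360. The labels do not say that the numbers pair the libraries. No gene named above changed direction with a call. Among uncalled genes, with scaling to totals only NDC80 went to 0.0503 and NUF2 to 0.00012. Against SGA360, leaving out 1 library gave ABCA1 differences of −0.0205 (without SGA360 replicate 2, and −0.00199 without SGA315 replicate 3) to 0.0718 and FOSL1 differences of −0.361 to 0.0178 (without SGA315 replicate 1). The causes were not tested. NUF2 was called lower with RLE scaling (adjusted p = 0.0449), without ribosomal RNA entries (0.04997) and without SGA315 replicate 3 (0.0328), and NDC80 without lovastatin replicate 2 (0.0477). Of 213 genes named against lovastatin alone, 65 lost their call in the 1.5-fold test, which is not marked beside them. AHR, NQO1, ABCA1, SREBF1 and CDX2 are among these. Another alternative ended the call of 7 genes, as given beside each. On the strand of the gene only, the E2F letters were in 12.1% of replication promoters, 2.6% of promoters of genes lower by 2-fold or more and 2.09% of all tested, and the CHR letters in 53.6% of mitotic promoters and 5.44% of all. Low genes such as the metallothioneins rest on few counts, and 3 libraries a group limit what small differences can be called.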
